A study of Mus musculus with 32 samples.

Results

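The genes described here are 28 genes of cholesterol synthesis and its control, chosen by name and matched by symbol to the gene identifiers of the deposited tables, out of 20612 genes listed in any of 32 libraries. All 28 were found and none was at 0 in any library. They comprise 20 enzymes, 5 genes of the control system (grouped below as regulators), which encode the transcription factors named sterol regulatory element-binding proteins (SREBPs) and the proteins that govern them, and 3 proteins that move sterols within the cell.

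The libraries were bulk RNA-seq of J1 cells, a mouse embryonic stem cell (ESC) line of strain 129S4/SvJae, and of cultures grown from them. Every culture stage was sampled under 4 treatments: DMSO alone, which is the solvent, or bisphenol A (BPA), F (BPF) or S (BPS), each at 100 nM. The global branch ran from ESCs (day 0) through embryoid bodies (EBs, clumps of cells differentiating in suspension) taken on days 4, 6, 9, 12 and 20. The neural branch held EBs of day 8, kept with retinoic acid for 4 days (RA EBs), and a monolayer of day 10 that the labels call neural progenitor cells (NPCs). ESCs and EBs at day 4 belonged to both branches. Each stage and treatment had 1 library, so a stage was described by its 4 treatment libraries, a treatment by its 8 stages, and the p-values measure only the spread between these libraries, which the labels do not tie to separate cultures. All libraries came from 1 cell line, and no group here carried a genetic change.

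Cholesterol is built from acetyl-CoA through the mevalonate pathway, which makes isoprenoid units, then through squalene and lanosterol, and finally through a series of demethylations and reductions. When sterol in the endoplasmic reticulum is low, the escort protein SCAP carries SREBPs to the Golgi, where they are cleaved, and the freed fragment switches on most of the enzymes. INSIG proteins hold SCAP back when sterol is plentiful, and INSIG1 is itself a target of SREBPs. Cholesterol is needed for membranes of dividing cells, for the modification of Hedgehog proteins and for the growing membranes of neurons.

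The promoters of 3 of these genes are shown because they held the core letters of a sterol regulatory element. RefSeq promoter windows of 300 bases (250 before and 50 after the start, GRCm38.p6) were at hand for 23 of the 28 genes, all but Npc1, Stard4, Fdps, Sqle and Fdft1. The letters CACNCCAC, searched on both strands, were found in the windows of 3 of the 23 genes (13%), against 7.12% of all 27025 genes with a window. Only the 250 bases before the start are printed, 5′ to 3′ on the strand of the gene, with CACNCCAC and CCAAT (the letters bound by NF-Y, a partner of SREBPs) in capitals on either strand. Insig1 is on the plus strand at chr5:28071162-28071411, Acat2 on the minus strand at chr17:12960726-12960975 and Hmgcs1 on the plus strand at chr13:119690101-119690350.
Insig1: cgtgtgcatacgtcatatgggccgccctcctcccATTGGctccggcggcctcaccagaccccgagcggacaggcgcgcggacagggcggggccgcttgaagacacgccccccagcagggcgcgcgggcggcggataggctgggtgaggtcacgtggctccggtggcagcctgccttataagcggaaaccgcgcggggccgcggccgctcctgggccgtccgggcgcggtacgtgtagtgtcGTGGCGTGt
Acat2: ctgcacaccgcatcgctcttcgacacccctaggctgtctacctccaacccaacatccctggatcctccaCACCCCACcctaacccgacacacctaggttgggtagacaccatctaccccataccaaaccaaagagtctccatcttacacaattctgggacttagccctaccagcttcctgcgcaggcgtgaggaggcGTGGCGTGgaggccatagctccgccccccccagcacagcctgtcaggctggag
Hmgcs1: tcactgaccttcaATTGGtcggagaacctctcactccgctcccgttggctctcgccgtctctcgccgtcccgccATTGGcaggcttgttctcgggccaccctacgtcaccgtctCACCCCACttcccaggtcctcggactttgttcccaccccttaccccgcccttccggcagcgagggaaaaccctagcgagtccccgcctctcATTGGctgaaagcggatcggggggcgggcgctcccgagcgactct
In the Insig1 promoter the core was written GTGGCGTG on the strand of the gene, with its first base at position -9 from the start. Acat2 held the core at -181 and at -53, and Hmgcs1 held it at -136. CCAAT was found in the windows of 21 of the 23 genes (91.3%), against 41.1% of all genes, and the GC box GGGCGG likewise in 21 of 23 (91.3%) against 38.2%. The E-box CACGTG was found in 5 of the 23 (21.7%) against 8.09%. The shares of all genes cover every gene with a window, whether or not it was expressed in these libraries. No share was taken over expressed genes alone, so the differences cannot be read as particular to sterol genes. These matches describe letters in the windows and not bound sites.

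Levels are given as FPKM (fragments scaled by transcript length and library size), which allows genes to be set side by side. In the mevalonate and isoprenoid steps, Hmgcs1 (HMG-CoA synthase) spanned 68.39 to 507.18 FPKM over the 32 libraries and was the highest of the enzymes at its top. Acat2, the cytosolic acetoacetyl-CoA thiolase that feeds it, spanned 22.71 to 161.23. The mevalonate kinase Mvk spanned 7.01 to 20.19, the phosphomevalonate kinase Pmvk 16.32 to 68.7 and the decarboxylase Mvd 17.87 to 65.44. Idi1, the isopentenyl diphosphate isomerase, spanned 36.51 to 76.44, the farnesyl diphosphate synthase Fdps 74.14 to 183.33 and Ggps1, which makes geranylgeranyl diphosphate, 8.45 to 20.99. By stage mean the kinases stood below Acat2, Hmgcs1 and Fdps, with 1 exception in ESCs, where Pmvk (58.7 ± 2.33 FPKM, SD, n = 4) was above Acat2 (54.2 ± 1.55). Of the squalene steps, Fdft1 (squalene synthase) spanned 33.68 to 98.44, Sqle (squalene epoxidase) 40.2 to 111.21 and Lss (lanosterol synthase) 6.41 to 29.72.

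After lanosterol, Cyp51 (lanosterol demethylase) spanned 15.02 to 105.98 FPKM and Msmo1 (sterol methyl oxidase) 28.62 to 130.02. Nsdhl and Hsd17b7, which act beside Msmo1 in removing methyl groups, spanned 13.3 to 67.64 and 1.61 to 12.97. The sterol reductases Tm7sf2 and Lbr, which carry out the same reduction, spanned 3.31 to 17.32 and 9.25 to 60.98, and Lbr is also the lamin B receptor of the inner nuclear membrane. Ebp (sterol isomerase) spanned 5.27 to 15.67, Sc5d (sterol desaturase) 6.76 to 35.47 and Dhcr7, which makes cholesterol from its last precursor on one route, 20.7 to 70.38. Among the regulators, Srebf2, the main driver of the cholesterol genes, spanned 46.55 to 122.21, and Srebf1, which leans to fatty acid genes, 8.83 to 27.8. Scap spanned 10.58 to 22.94, Insig1 21.32 to 105.67 and Insig2 4.74 to 12.66. Of the carriers, Npc2 and Npc1, which hand cholesterol out of lysosomes, spanned 54.36 to 111.58 and 7.66 to 29.25, and the sterol transfer protein Stard4 spanned 6.73 to 19.46.

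The counts of Acat2, Cyp51, Idi1, Ggps1 and Sc5d were fractional in every library, since reads that also match another gene were divided between them. Those of Hsd17b7, Lss and Npc1 were whole in 20, 29 and 31 of the 32 libraries and fractional in the rest. Values from fractional counts carry that uncertainty. The near copy Acat3 of Acat2 was listed at 34.68 to 94.02 FPKM, and Idi2, the near copy of Idi1, at no more than 0.24. Library totals lay between 9574833 and 11070149 expected counts. In ESC libraries 8 pluripotency markers summed to 4108.19 to 4427.73 FPKM and fell to 12.57 to 23.63 in RA EBs. In the libraries labelled NPC, 8 neuron markers summed to 2261.6 to 2457.17 FPKM and 8 neural progenitor markers to 858.12 to 973.12. Against RA EBs all 8 neuron markers rose there, while 1 progenitor marker rose and 2 fell. The 14 genes of the cell cycle summed there to 282.77 to 320.32, against 1417.47 to 1447.93 in RA EBs. In all of these bulk samples, fewer cells of a type and less RNA per cell cannot be told apart.

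Most of the enzymes moved together over the stages, with a low point at EB day 4. The FPKM of the 20 enzymes summed to between 954.46 and 970.61 in the 4 ESC libraries and to between 499.83 and 529.73 at EB day 4. From there the sum was 781.9 to 855.27 at EB day 6, 860.65 to 1104.79 at day 9, 1080.34 to 1493.85 at day 12 and 1326.06 to 1608.05 at day 20. On the neural branch it was 772.98 to 858.26 in RA EBs and 1337.33 to 1519.19 in NPCs. In this sum the libraries of ESCs, EB day 4 and NPCs did not overlap one another. Those of EB day 6 and RA EBs overlapped, and those of EB days 12 and 20 overlapped with NPCs. Hmgcs1 weighed heavily in the sum, at 109.7 to 113.33 FPKM in ESCs and 390.27 to 464.07 in NPCs. Mvk, Pmvk, Mvd, Fdps, Msmo1, Ebp, Dhcr7 and Lbr had lower stage means in NPCs than in ESCs, and the other enzymes had higher ones. EB day 4 had the lowest stage mean for 19 of the 20 enzymes, the exception being Lbr.

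**Figure D1:**
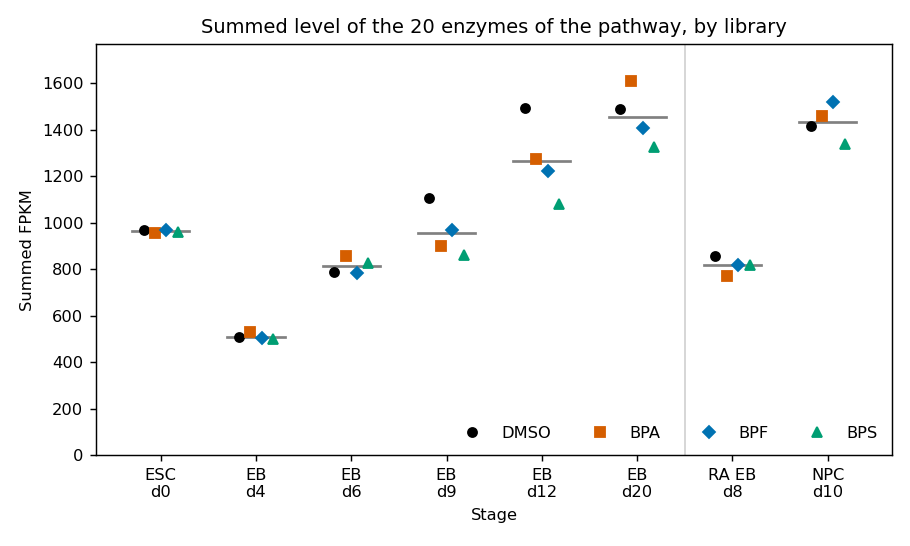
The summed FPKM of the 20 enzymes (y axis, from 0) in each of the 32 libraries is plotted by stage (x axis), with 1 point for each treatment and a grey line at the mean of 4; the neural stages stand to the right of the vertical line. All 4 libraries of EB day 4 lie at or below 529.73, and the DMSO library is the highest of its 4 at EB days 9 and 12.

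Likeness was measured as Pearson's r over the 8 stage means of log2(FPKM + 1), between a gene and the mean of the other enzymes, each scaled to mean 0 and SD 1. It is a description over stages that share a differentiation order, with no test. Cyp51 (r = 0.96), Lss (0.93) and Msmo1 (0.92) followed the others most closely, and Hmgcs1 had r = 0.87. Among the enzymes Ebp (0.52) and Ggps1 (0.64) followed less closely, and Lbr ran the other way (-0.69). Of the regulators, Srebf2 (0.88) and Insig1 (0.85) tracked the enzymes, while Srebf1 (0.41), Insig2 (0.38) and Scap (0.19) did so less. Stard4 (0.02) and Npc1 (-0.61) did not share the profile, and Npc2 had r = 0.61.

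**Figure D2:**
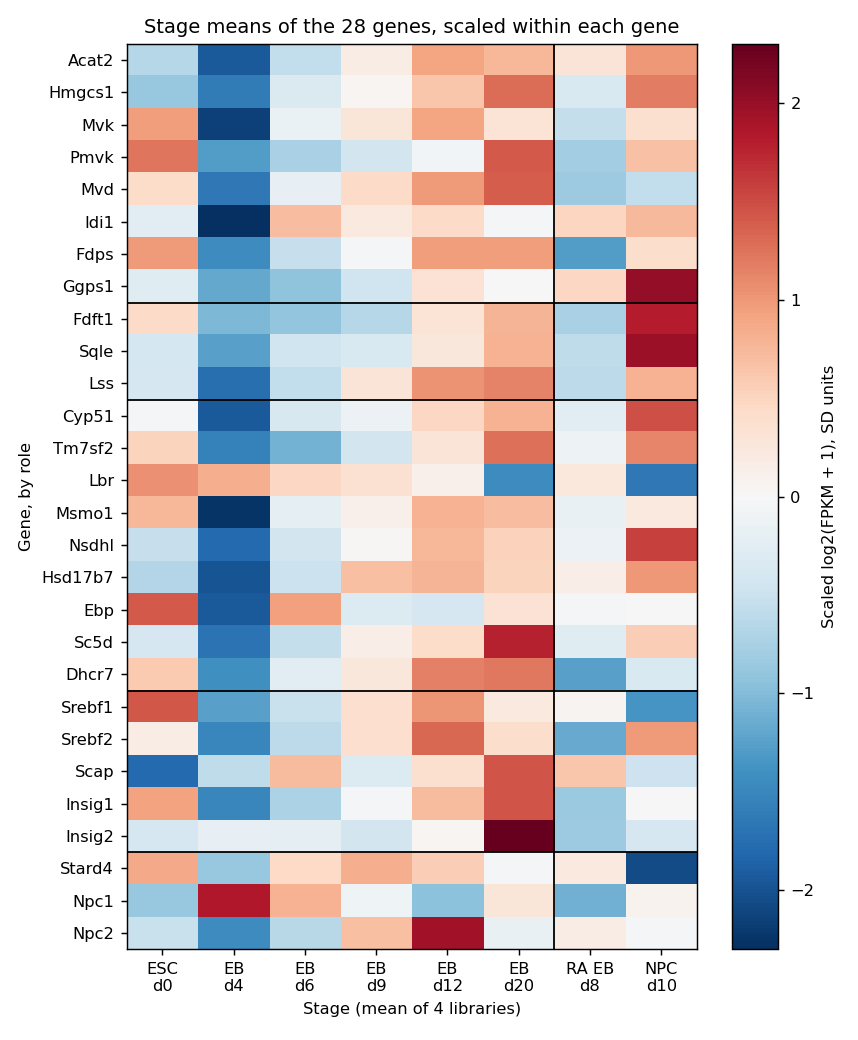
Stage means of log2(FPKM + 1), scaled within each gene to mean 0 and SD 1 (colour, red high and blue low), are shown for the 28 genes (rows, grouped by role) at the 8 stages (columns). The column of EB day 4 is blue for the enzymes other than Lbr, while Npc1 is at its highest there.

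The first question was what happened to these genes as ESCs left the stem cell state. Sterol synthesis genes fell at EB day 4: of the 28, 12 fell and 1 rose by the rule for stages (edgeR's quasi-likelihood test, Benjamini-Hochberg adjusted p under 0.05 and a log2 change of at least 1). Over all 15632 genes tested, 13.6% fell and 14.4% rose by this rule. The median log2 change was -0.83 over the 28 genes and 0.00054 over all genes tested. By role, 4 of 8 mevalonate genes fell, 6 of the 9 that act after lanosterol, none of the 3 squalene genes, and 2 of the 5 regulators. The 3 squalene genes were lower by less than the 2-fold asked, with log2 changes of -0.33 for Sqle, -0.74 for Fdft1 and -0.86 for Lss.

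Msmo1 was at 109.07, 108.45, 109.29 and 107.16 FPKM in ESCs (DMSO, BPA, BPF and BPS, the order used throughout) and at 32.24, 29.54, 28.62 and 29.6 at EB day 4. The libraries of the stages lay far apart, and the log2 change was -1.84 (SE 0.08, edgeR adjusted p = 6.2e-17), a 3.58-fold fall. Insig1, the SREBP target that restrains SREBPs, went from 78.03, 78.26, 73.43 and 76.93 to 21.32, 22.2, 22.5 and 22.1 FPKM. Its log2 change was -1.78 (SE 0.08, edgeR adjusted p = 5.3e-17). Pmvk went from 61.21, 59.94, 57.66 and 55.98 to 16.32, 21.48, 16.6 and 17.95 FPKM, a log2 change of -1.68 (SE 0.08, edgeR adjusted p = 2.8e-16). Srebf1 went from 24.96, 25.26, 26.33 and 27.8 to 10.18, 9.69, 9.98 and 9.01 FPKM, a log2 change of -1.41 (SE 0.10, edgeR adjusted p = 6.9e-13). In each of these genes the lowest ESC library was above the highest EB day 4 library. The other genes that fell were Cyp51 (-1.40), Ebp (-1.34), Tm7sf2 (-1.33), Mvk (-1.24), Hsd17b7 (-1.24), Dhcr7 (-1.12), Mvd (-1.08) and Acat2 (-1.06), all as log2 changes.

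Npc1, the lysosomal cholesterol exporter, was the 1 gene that rose. It went from 9.18, 9.75, 9.82 and 11.11 FPKM in ESCs to 29.25, 25.94, 26.41 and 28.93 at EB day 4, a log2 change of 1.49 (SE 0.09, edgeR adjusted p = 3.2e-14). Its partner Npc2 had a log2 change of -0.255, Scap one of 0.41, and Srebf2 one of -0.605, each short of 2-fold. The 14 cell cycle genes had a median log2 change of -0.03 and none passed the rule. Of them 3 were at an unadjusted p under 0.05 by edgeR, where 10537 of all 15632 genes were. Pluripotency markers fell (6 of 8, 1 rose), and 4 of 8 muscle markers rose and 1 fell, the sum of these 8 going from 20.07 to 24.91 in ESCs to 509.36 to 549.88 FPKM. The part of these markers in the sterol values was not tested.

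Among related genes, 6 of 16 genes of fatty acid synthesis and targets of SREBP-1 fell and 1 rose, with a median log2 change of -0.84. SREBP-1 is the product of Srebf1, and these 16 are called fatty acid genes below. The desaturases Scd1 (-3.09, SE 0.14) and Scd2 (-2.20, SE 0.09) fell most in that list. Of 14 efflux and storage genes tested, 4 fell and 2 rose, Abca1 (a cholesterol exporter at the plasma membrane) by -3.75 (SE 0.35) and Soat1 (which makes cholesterol esters) by 2.73 (SE 0.09) on the log2 scale. Abca1 stood at 2.75 to 3.28 FPKM in ESCs and 0.1 to 0.42 at EB day 4. Of 14 sterol transfer proteins 2 rose and 2 fell, with Gramd1c (3.84, SE 0.34) and Osbpl5 (3.03, SE 0.19) the largest changes. Of 15 genes of SREBP processing and sterol sensing 2 rose and 2 fell, among them the ligase gene Rnf145 (1.45, SE 0.08) and Erlin1 (-1.26, SE 0.09). None of 13 isoprenoid-using genes passed, with 7 at an unadjusted p under 0.05, where 10537 of all 15632 genes were.

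The next comparisons followed the global branch. From EB day 4 to day 6, 6 of the 28 genes rose and none fell, where 10.8% of all genes rose and 8.75% fell. The median log2 change was 0.53, against 0.0041 over all genes. Hsd17b7 went from 1.61, 2.07, 2.15 and 1.95 to 5.14, 5.34, 5.28 and 4.84 FPKM, a log2 change of 1.36 (SE 0.11, edgeR adjusted p = 5e-11). Msmo1 rose to 68.93, 76.11, 68.63 and 75.31 FPKM, a log2 change of 1.22 (SE 0.08, edgeR adjusted p = 9.8e-13). Its level at day 6 was still below every ESC library. Hmgcs1 rose from 70.56, 68.39, 69.1 and 69.39 to 146.98, 174.91, 148.02 and 160.92 FPKM, a log2 change of 1.14 (SE 0.10, edgeR adjusted p = 4.3e-10), and so passed its ESC libraries of 109.7 to 113.33. Cyp51 rose from 15.02, 18.51, 17.11 and 16.3 to 35.8, 41.14, 36.07 and 38.71 FPKM, a log2 change of 1.13 (SE 0.08, edgeR adjusted p = 4.1e-12). Ebp and Acat2 also rose. In the fatty acid list 3 of 16 rose and 1 fell, with Scd2 (1.97, SE 0.08) and the acetoacetyl-CoA synthetase gene Aacs (1.60, SE 0.10) the largest log2 changes. At this step 5 of 8 pluripotency markers fell, while 5 of 8 neural progenitor, 5 of 8 mesenchyme and 4 of 7 visceral endoderm and liver markers rose, and their part was not tested.

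From day 6 to day 9 and from day 9 to day 12 the steps were smaller than 2-fold. At neither step did a gene of the 28 pass the rule in edgeR, DESeq2 or limma, where 10.7% of all genes rose and 3.97% fell at the first step and 7.56% rose and 2.43% fell at the second. At an unadjusted p under 0.05 in edgeR there were 16 of the 28 at the first step, where 8783 of all 15632 genes were. At the second step there were 21 of the 28, and the shares of all genes follow for the adjusted p. By the adjusted p alone, 12 rose and 4 fell from day 6 to day 9 (all genes 27% and 24.1%), and 19 rose and 2 fell from day 9 to day 12 (all genes 20.3% and 20.8%). The smallest p of the first step belonged to Hsd17b7, whose libraries reached 9.29, 9.65, 11.83 and 9.56 FPKM, a log2 change of 0.90 (SE 0.10, edgeR adjusted p = 1.7e-08). Npc1 (-0.56, SE 0.09) and Scap (-0.40, SE 0.06) came next. At the second step these were Insig1 (0.53, SE 0.08), Fdft1 (0.46, SE 0.07) and Dhcr7 (0.46, SE 0.07) on the log2 scale.

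From day 12 to day 20 a single gene of the 28 passed, and it fell: Lbr, from 37.68, 31.06, 31.8 and 31.58 to 10.65, 11.37, 12.66 and 10.55 FPKM. Its log2 change was -1.66 (SE 0.07, edgeR adjusted p = 1.8e-17), a 3.15-fold fall, and no library overlapped. Over all genes 17.6% rose and 8.78% fell. Pmvk came next with a log2 change of 0.88 (SE 0.08), from 31.72, 32.61, 33.22 and 31 to 68.51, 68.7, 59.12 and 58.97 FPKM, and Npc2 followed with -0.71 (SE 0.07), both short of 2-fold. By the adjusted p alone 8 rose and 10 fell (all genes 33.8% and 34.4%). All 14 cell cycle genes fell at this step, and their sum went from between 870.07 and 1034.54 to between 206.7 and 273.13 FPKM. The sum of 8 astrocyte markers went from 58.69 to 68.15 up to 503.68 to 536.36 FPKM. That of 8 neuron markers went from 523.05 to 750.93 up to 1212.67 to 1579.23. That of 8 neural progenitor markers fell from between 1400.36 and 1727.82 to between 897.42 and 1119.28. Whether any of these shifts bears on Lbr was not tested.

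On the neural branch, RA EBs at day 8 were compared with EB day 4. Of the 28 genes 5 rose and 1 fell, where 19% of all genes rose and 15.7% fell, so the count that rose was near the share of all genes. The median log2 change was 0.43, against 0.03 over all genes. Hsd17b7 reached 8.6, 6.18, 7.52 and 7.8 FPKM, a log2 change of 1.85 (SE 0.11, edgeR adjusted p = 1.2e-14). Acat2 went from 22.71, 28.39, 27.2 and 24.62 to 98.94, 88.94, 92.03 and 95.97 FPKM, a log2 change of 1.765 (SE 0.11, edgeR adjusted p = 3.8e-14) for a gene that shares reads with a near copy. Msmo1 (1.19, SE 0.08), Cyp51 (1.16, SE 0.08) and Hmgcs1 (1.07) rose as well. Npc1 fell to 8.67, 8.7, 9.42 and 9.65 FPKM, a log2 change of -1.71 (SE 0.09, edgeR adjusted p = 1.3e-15), and these libraries overlapped those of ESCs (9.18 to 11.11). Of the fatty acid genes 4 of 16 rose and 3 fell, led by Scd2 (3.16, SE 0.09) and the malic enzyme gene Me1 (-1.765, SE 0.14). All 8 neuron and 6 of 8 neural progenitor markers rose at this step, 7 of 8 pluripotency and 6 of 8 muscle markers fell, and their part was not tested.

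From RA EBs to NPCs 6 genes rose and 1 fell, where 18.1% of all genes rose and 17.4% fell, so the count that rose was near the share of all genes. The median log2 change was 0.62, against -0.01 over all genes. Hmgcs1 went from 149.39, 152.29, 159.54 and 163.48 to 410.58, 409.27, 464.07 and 390.27 FPKM, a log2 change of 1.49 (SE 0.10, edgeR adjusted p = 3.4e-13). Fdft1, which commits farnesyl units to sterols, went from 37.58, 37.78, 36.34 and 39.22 to 95.14, 94.61, 98.44 and 84.5 FPKM, a log2 change of 1.375 (SE 0.07, edgeR adjusted p = 3.5e-16). Cyp51 went from 39.05, 38.77, 40.77 and 42.25 to 105.98, 94.1, 101.19 and 91.08 FPKM, a log2 change of 1.36 (SE 0.08, edgeR adjusted p = 8.9e-15). Nsdhl followed with a log2 change of 1.15 (SE 0.09), and Sqle (1.1) and Pmvk (1.07) also rose. Of the 3 squalene genes, 2 were among the 6 that rose here. None of the 3 was called on leaving the ESC state, where all were lower by less than 2-fold.

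Lbr fell from 37.64, 33.27, 38.81 and 33.97 FPKM in RA EBs to 9.41, 10.76, 10.04 and 9.25 in NPCs, a log2 change of -1.79 (SE 0.07, edgeR adjusted p = 1.5e-18). It was the lowest stage for this gene, whose highest stage, ESCs, stood 6.16-fold above. Tm7sf2, which catalyses the same reduction, was at 12.05, 12.25, 17.32 and 13.89 FPKM in NPCs against 11.95, 6.8, 8.41 and 5.95 in RA EBs. Levels of the pair thus stood far apart in ESCs (60.45 to 60.98 FPKM for Lbr against 9.99 to 11.37 for Tm7sf2). In NPCs every Tm7sf2 library was above every Lbr library, as was also so at EB day 20 (12.88 to 16.72 against 10.55 to 12.66 FPKM). All 14 cell cycle genes fell at this step too (median log2 change -2.28), and whether this bears on Lbr was not tested. Of the fatty acid genes 2 of 16 rose, Lpin1 (1.99, SE 0.12) and Aacs (1.12, SE 0.09).

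**Figure D3:**
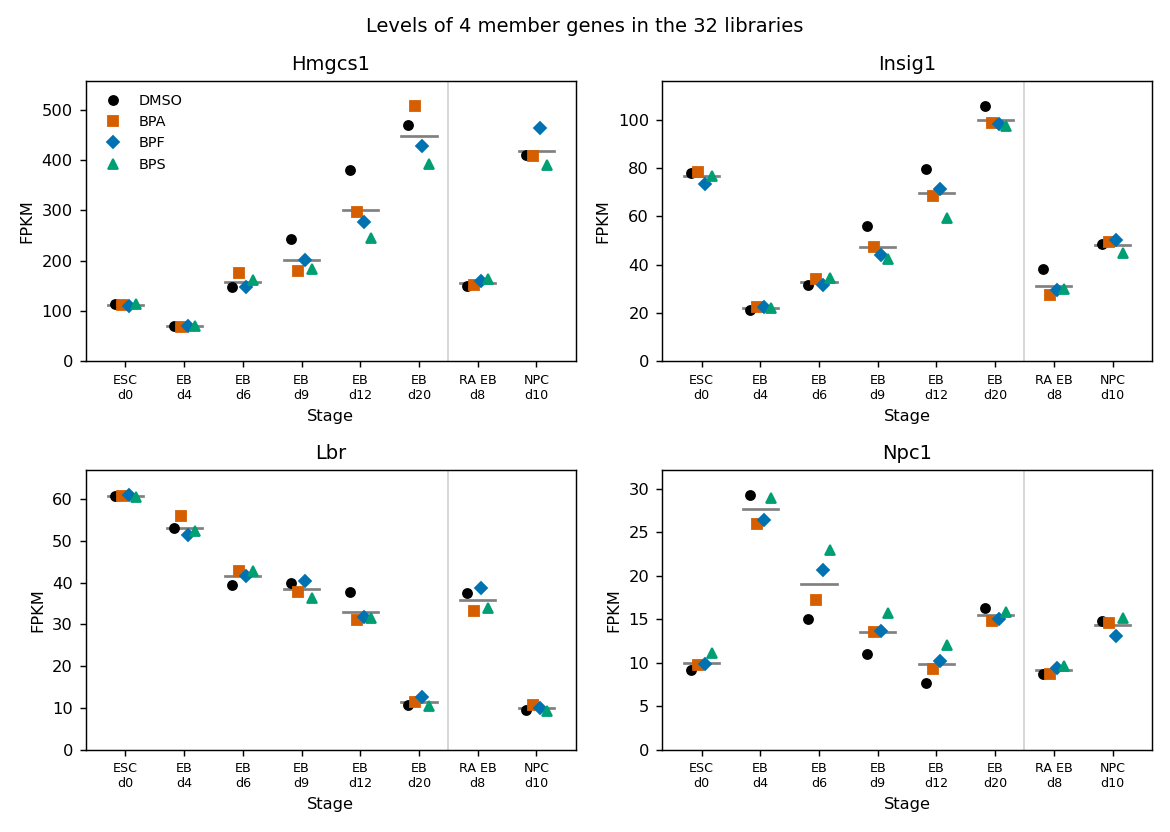
FPKM (y axes, each from 0) of Hmgcs1, Insig1, Lbr and Npc1 is plotted in the 32 libraries by stage (x axes), with 1 point for each treatment and a grey line at the mean of 4. Hmgcs1 and Insig1 dip at EB day 4, where Npc1 peaks at 25.94 to 29.25, and Lbr is lowest at EB day 20 and in NPCs.

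The branches were then compared near one age. Between RA EBs at day 8 and the mean of EB days 6 and 9, none of the 28 genes passed in edgeR, DESeq2 or limma. Of all genes 8.62% passed as higher in RA EBs and 10.3% as lower. At the looser unadjusted p under 0.05 there were 15 of the 28 in edgeR. By the adjusted p alone 3 were higher and 12 lower (all genes 30.3% and 30.2%), with Dhcr7 (-0.73, SE 0.065), Npc1 (-0.83, SE 0.08) and Srebf2 (-0.41, SE 0.06) at the smallest p. Dhcr7 stood at 28.46, 21.27, 21.34 and 22.16 FPKM in RA EBs, below the 33.95 to 34.57 of EB day 6 and the 39 to 48.34 of EB day 9.

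Between NPCs at day 10 and the mean of EB days 9 and 12, 2 genes were higher and 3 lower, where 16.4% of all genes were higher and 22.4% lower. By the adjusted p alone 15 were higher and 7 lower (all genes 37.7% and 41.2%). Fdft1 (log2 difference 1.11, SE 0.06, edgeR adjusted p = 3.6e-16) and Cyp51 (1.07, SE 0.065, edgeR adjusted p = 1.7e-14) were higher in NPCs, both near the limit of 2-fold, and with limma on FPKM they were 0.99 and 0.95. Lbr was lower (-1.75, SE 0.06, edgeR adjusted p = 1.6e-19). Stard4, which carries sterol between membranes, stood at 6.73, 8.4, 9.31 and 6.84 FPKM in NPCs against 15.9 to 19.46 at EB days 9 and 12, a log2 difference of -1.07 (SE 0.08, edgeR adjusted p = 6.7e-13). Srebf1 was at 9.18, 9.53, 9.72 and 8.83 FPKM in NPCs, its lowest stage, with a log2 difference of -1.01 (SE 0.09, edgeR adjusted p = 3.6e-11). Leaving out the DMSO libraries gave -0.96 for Stard4 and -0.97 for Srebf1, and DESeq2 and its scaling each gave -0.96 for Srebf1, all short of 2-fold. DESeq2 called 4 of the 28 and limma 3. In this comparison all 8 neuron markers were higher in NPCs, and all 8 muscle markers, all 7 visceral endoderm and liver markers tested and all 14 cell cycle genes were lower, beside the lower Lbr. Their part was not tested.

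The 3 bisphenols were compared with DMSO over all 8 stages. BPA, BPF and BPS are structurally related: in each a pair of phenol rings is joined by a bridge, which is a carbon carrying methyl groups in BPA, a plain methylene in BPF and a sulfonyl in BPS. All were given at 100 nM. For these comparisons the call rests on the adjusted p alone. For BPA none of the 28 genes passed in edgeR, DESeq2 or limma, where edgeR called 0.166% of all genes. For BPF none passed by any of these tools, where edgeR called 0.992% of all genes. At the looser unadjusted p under 0.05 in edgeR there were 3 of the 28 for BPA and 4 for BPF. No share of all genes is given at that cutoff. In both cases the 3 smallest p belonged to Srebf2, Dhcr7 and Insig1, with log2 changes of -0.19, -0.12 and -0.13 for BPA and -0.15, -0.14 and -0.14 for BPF. The 3 comparisons share their DMSO libraries.

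For BPS, Npc1 was higher and Dhcr7 lower, where 0.621% of all genes were called higher and 0.525% lower. Npc1 was higher by a log2 change of 0.26 (SE 0.06, edgeR adjusted p = 0.043), with the BPS library above the DMSO library at 6 of 8 stages. The exceptions were EB day 4 (28.93 against 29.25 FPKM) and EB day 20 (15.87 against 16.25). Dhcr7 was lower by -0.20 (SE 0.05, edgeR adjusted p = 0.049). Its BPS library was below DMSO at 7 of the 8 stages, from 45.91 against 46.16 FPKM in ESCs to 50.99 against 70.38 at EB day 12, and above at EB day 6 (34.32 against 33.95). Neither passed in limma on FPKM (adjusted p = 0.11 for each), and leaving out EB day 6, EB day 9, EB day 12 or RA EBs ended both calls. Without EB day 12 the log2 changes were 0.21 for Npc1 and -0.15 for Dhcr7 (edgeR adjusted p = 0.25 and 0.28), and without EB day 9 they were 0.22 and -0.18 (0.25 and 0.24). Leaving out ESCs also ended the call of Npc1, and EB day 4 or EB day 20 that of Dhcr7. In all, 13 of the 28 were at an unadjusted p under 0.05 for BPS in edgeR. The share of all genes at that looser cutoff is not given here, so this count does not set the 28 apart from other genes.

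The bisphenols were also compared with each other over the 8 stages, in 3 pairs with p-values adjusted over genes and pairs together. None of the 28 genes passed in any pair by edgeR, DESeq2 or limma. The share of all genes called was 0% for BPA against BPF, 0.0064% for BPA against BPS and 0% for BPF against BPS. At an unadjusted p under 0.05 there were 0, 3 and 2 of the 28. The smallest p belonged to Npc1, at a log2 difference of -0.22 for BPA minus BPS (95% interval -0.35 to -0.09, edgeR adjusted p = 1). For BPF minus BPS it was -0.16 (-0.29 to -0.03, edgeR adjusted p = 1). Idi1 and Fdps were 0.155 and 0.13 higher with BPA than with BPS on the log2 scale (0.02 to 0.29 and 0.005 to 0.25), and 0.13 and 0.15 higher with BPF than with BPS (-0.01 to 0.27 and 0.03 to 0.27). Between BPA and BPF the smallest p belonged to Acat2 (0.10, -0.05 to 0.25), Msmo1 (0.075, -0.04 to 0.19) and Pmvk (0.065, -0.05 to 0.18). All of these had an edgeR adjusted p of 1. Over the 28 genes the 95% intervals reached no further than -0.35 and 0.40 in any pair, so differences up to that size between the methyl-bearing, methylene and sulfonyl bridges were not excluded by these libraries.

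Within a stage the 3 bisphenol libraries were set against the 1 DMSO library, which was assumed to vary like the others. Sterol genes were lower with bisphenols at EB day 12: 12 of the 28 were lower and none higher, where 8.79% of all genes were called lower and 10.1% higher. The median log2 change of the 28 was -0.26, against -0.05 over all genes. The DMSO library was above all 3 bisphenol libraries for 22 of the 28 genes, against 35.1% of all genes. Of the 12, 4 act in the mevalonate steps (Acat2, Hmgcs1, Mvd and Idi1), 2 on squalene (Sqle and Lss), 4 after lanosterol (Tm7sf2, Lbr, Msmo1 and Dhcr7) and 2 are regulators (Srebf2 and Insig1). Limma on FPKM called 9 genes and DESeq2 12, and edgeR called 8 without the BPS library and 15 without the BPA library.

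**Figure D4:**
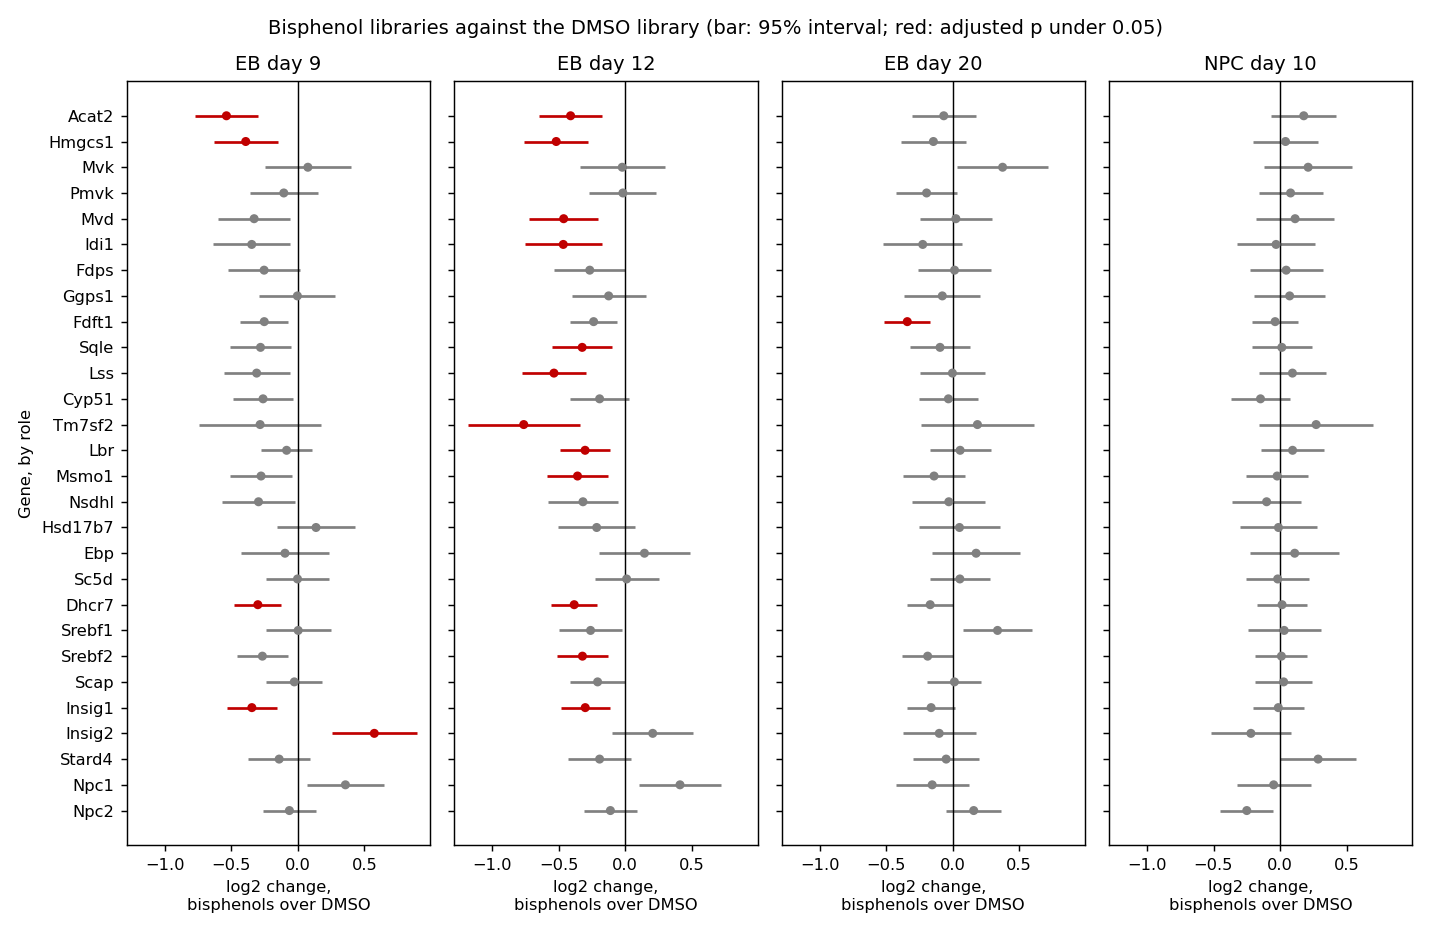
Log2 change of the 3 bisphenol libraries over the DMSO library (x axes) is plotted for the 28 genes (rows, by role) at EB days 9, 12 and 20 and in NPCs, with bars for the 95% interval and red for an adjusted p under 0.05. At EB day 12, 12 genes are red and all lie left of 0, while in NPCs none is red.

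At EB day 12 Lss stood at 29.72 FPKM with DMSO and at 23.66, 21.51 and 18.09 with BPA, BPF and BPS. Its log2 change was -0.54 (SE 0.12, edgeR adjusted p = 0.0016). Dhcr7 stood at 70.38 against 57.97, 57.55 and 50.99 FPKM, a log2 change of -0.38 (SE 0.08, edgeR adjusted p = 0.0017). Hmgcs1 stood at 380.67 against 297.27, 277.65 and 245.03 FPKM, a log2 change of -0.52 (SE 0.12, edgeR adjusted p = 0.0022). Tm7sf2 had the largest difference, 14.13 against 9.66, 9.06 and 6.98 FPKM, a log2 change of -0.76 (SE 0.20, edgeR adjusted p = 0.0092). Mvd stood at 62.22 against 49.32, 48.21 and 41.95 FPKM, a log2 change of -0.46 (SE 0.13, edgeR adjusted p = 0.011), and Acat2 at 161.23 against 135.93, 124.39 and 114.32 FPKM, a log2 change of -0.41 (SE 0.12, edgeR adjusted p = 0.012). In all 6 of these genes DMSO was highest and the order of the rest was BPA, BPF, BPS. For Srebf2 the bisphenol libraries lay together (101.61, 100.19 and 100.23) below DMSO (122.21). Npc1 ran the other way, at 7.66 with DMSO and 9.29, 10.14 and 12.05 with the bisphenols, without passing (log2 change 0.41, edgeR adjusted p = 0.054).

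**Figure D5:**
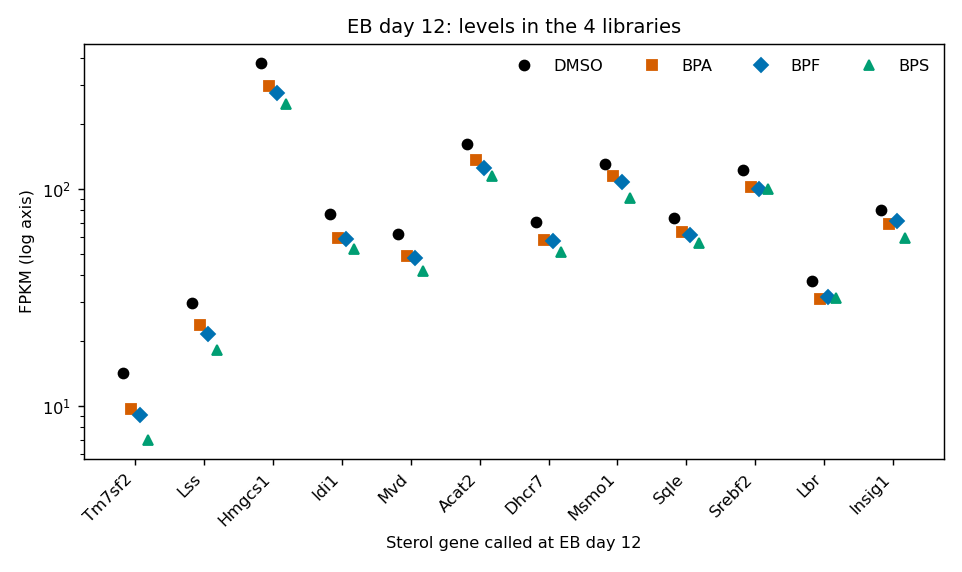
FPKM (y axis, log scale) of the 12 genes called at EB day 12 (x axis, by size of change) is plotted in the DMSO, BPA, BPF and BPS libraries of that stage. The DMSO point is the highest of the 4 in each gene, as for Tm7sf2 at 14.13 against 6.98 to 9.66.

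Markers of other cell types moved with this difference. At EB day 12, 8 muscle markers summed to 33.63 FPKM with DMSO and to 477.9, 719.95 and 720.52 with BPA, BPF and BPS, and 8 mesenchyme markers to 41.06 against 492.68, 529.38 and 508.21. Of these, 7 of 8 muscle and all 8 mesenchyme markers were called higher with bisphenols. The 8 neural progenitor markers summed to 1727.82 against 1439.61, 1424.92 and 1400.36, and 8 neuron markers to 750.93 against 645.11, 525.29 and 523.05, with 7 of 8 and 5 of 8 called lower. No marker of these 4 lists was at 0 in all libraries of the stage. The 14 cell cycle genes summed to 1034.54 against 870.07, 897.68 and 917.95, and 5 of them were called lower. Markers of visceral endoderm and liver summed to 30.84 with DMSO, 27.08 with BPA, 164.13 with BPF and 379.37 with BPS. The part of these markers in the sterol difference was not tested, and with 1 DMSO library the treatment and that culture cannot be told apart. At EB day 20 muscle and mesenchyme markers also stood low with DMSO (79.3 against 436.87 to 739.33, and 147.55 against 1320.03 to 1481.63). Neuron markers again stood highest with DMSO (1579.23 against 1212.67 to 1437.16). Neural progenitor markers (897.42 against 1022.45 to 1119.28) and cell cycle genes (206.7 against 251.93 to 273.13) were lowest with DMSO there, unlike at EB day 12. Of the 28 sterol genes 1 was called at EB day 20, and the part of these markers was not tested there either.

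Of the related lists at EB day 12, that of fatty acid synthesis and SREBP-1 targets had the most calls. Of its 16 genes 10 were lower and 2 higher (median log2 change -0.36). The largest changes were those that were higher, Me1 (1.04, SE 0.21) and Aldoc (0.85, SE 0.21), and Aldoc was also listed as an astrocyte marker. Scd1 stood at 79.15 with DMSO and 56.1, 53.4 and 41.8 FPKM with the bisphenols. Of 14 efflux and storage genes 3 were higher and 2 lower. Abca1 stood at 0.44 against 1.29, 1.65 and 1.8 FPKM (log2 change 1.815, SE 0.28), and Mylip, a ligase gene switched on by sterols, was higher by 1.80 (SE 0.28). Of 14 transfer proteins 1 was higher, of 15 processing genes 1 was higher (Sec24d, 1.46, SE 0.17), and of 13 isoprenoid-using genes 1 was higher.

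At EB day 9, 4 of the 28 genes were lower with bisphenols and 1 higher, where 3.48% of all genes were called lower and 4.01% higher. DMSO was above all 3 bisphenol libraries for 18 of the 28, against 27.4% of all genes. The median log2 change was -0.25, against 0.0036 over all genes. Acat2 stood at 113.92 against 83.27, 83.51 and 71.98 FPKM, a log2 change of -0.54 (SE 0.12, edgeR adjusted p = 0.0036). Insig1 stood at 55.89 against 47.28, 44.15 and 42.29 FPKM, a log2 change of -0.35 (SE 0.09, edgeR adjusted p = 0.017). Its relative Insig2 ran the other way, at 4.74 against 6.66, 7.97 and 6.75 FPKM, a log2 change of 0.57 (SE 0.15, edgeR adjusted p = 0.019). Dhcr7 (-0.30, SE 0.085, edgeR adjusted p = 0.028) and Hmgcs1 (-0.39, SE 0.12, edgeR adjusted p = 0.039) were lower. DESeq2 and limma each called 4 genes. Without the BPS library 2 genes were called, without the BPA library Hmgcs1 no longer passed (edgeR adjusted p = 0.06), and without the BPF library Insig2 did not (0.077). Neural progenitor markers summed to 960.02 with DMSO against 725.46 to 775, neuron markers to 254.49 against 126.16 to 183.94, and muscle markers to 275.42 against 308.1 to 538.31. Of these lists 5 of 8, 6 of 8 and none of 8 were called lower, with 1 muscle marker called higher. Mesenchyme markers summed to 210.07 with DMSO against 239.96, 253.04 and 278.44, with 6 of 8 called higher and 1 lower. The part of all these markers was not tested. Of the fatty acid genes 2 of 16 were lower, Scd1 (-0.73, SE 0.13) and Acss2 (-0.57, SE 0.15), and of 14 efflux and storage genes Abca1 (1.05, SE 0.31) and Mylip (0.91, SE 0.26) were higher and Lrp8 (-0.45, SE 0.13) lower.

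The other stages gave few calls. At EB day 20 Fdft1 was lower, at 75.27 against 63.82, 63.78 and 58 FPKM (log2 change -0.34, SE 0.085, edgeR adjusted p = 0.0053), where 10.5% of all genes were lower and 9.14% higher. In RA EBs Dhcr7 (-0.35, SE 0.09, edgeR adjusted p = 0.041) and Insig1 (-0.36, SE 0.095, edgeR adjusted p = 0.042) were lower, where 1.44% of all genes were lower and 0.902% higher. Insig1 stood there at 38.33 against 27.2, 29.52 and 29.73 FPKM. Both calls ended without a filter on low counts (edgeR adjusted p = 0.07), without the BPA library (0.09 and 0.11) and without the BPS library (0.051 for each), and that of Dhcr7 also without the BPF library (0.064). Dhcr7 was thus lower in 3 of the stages, each time with the 3 bisphenol libraries below DMSO.

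At ESC, EB day 4, EB day 6 and NPC none of the 28 passed in edgeR, DESeq2 or limma, with 0, 2, 1 and 2 genes at an unadjusted p under 0.05 in edgeR. By the adjusted p, 0% of all genes were called in ESCs, 0.563% at EB day 4, 2.55% at EB day 6 and 2.25% in NPCs. The smallest p in ESCs belonged to Ggps1 (log2 change 0.24, SE 0.14), Ebp (-0.22, SE 0.15) and Npc1 (0.15, SE 0.14). At EB day 4 they were Srebf2 (-0.275, SE 0.095), Insig2 (0.33, SE 0.15) and Acat2 (0.23, SE 0.14). At EB day 6 they were Npc1 (0.41, SE 0.135), Mvk (0.30, SE 0.165) and Tm7sf2 (0.32, SE 0.25), and in NPCs Npc2 (-0.25, SE 0.10), Stard4 (0.29, SE 0.14) and Acat2 (0.18, SE 0.12). In ESCs the 4 libraries of most of these genes lay close together, as for Lbr at 60.83, 60.84, 60.98 and 60.45 FPKM.

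Whether the bisphenol effect differed between the global branch (EB days 6, 9, 12 and 20) and the neural branch (RA EBs and NPCs) was tested as such. None of the 28 genes passed in edgeR, DESeq2 or limma, where edgeR called 8.79% of all 15084 genes tested. At the looser unadjusted p under 0.05 there were 5 of the 28 in edgeR, with no share of all genes given at that cutoff. Acat2 (difference of log2 changes -0.32, SE 0.14, edgeR adjusted p = 0.15), Hmgcs1 (-0.32, SE 0.14, edgeR adjusted p = 0.16) and Insig2 (0.36, SE 0.16, edgeR adjusted p = 0.16) had the smallest p. Without EB day 6, a setting added after the data were seen, 3 genes passed.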

How the data were processed

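Per the submitters' processing notes, the tools named were HISAT, Bowtie2 and RSEM and the build mm10, with no versions or roles given. The authors deposited 1 table per library with expected counts and FPKM per gene (per the file headers); a gene not listed in a library was set to 0. Reads shared between genes are split in expected counts, so 78.8% to 80.6% of a library's values were whole. Identifiers were matched to RefSeq symbols (20551 of 20612).

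Expected counts were rounded and tested with edgeR 4.0.16 (quasi-likelihood, TMM factors 0.923 to 1.14, genes at 1 CPM or more in at least 4 libraries, Benjamini-Hochberg over all genes). All 28 genes passed this filter in all 24 comparisons. Stages and treatments were fitted as additive terms (21 residual degrees of freedom) and classes within stages as stage by class (16). The branch difference was fitted on 24 libraries. DESeq2 1.42.0, limma 3.58.1 on log2(FPKM + 1), other filters and scalings and leaving out libraries were alternatives. The test was checked on simulated data. The genes and lists were chosen with earlier results of these data known. Named genes: in each stage comparison up to 4 called genes of largest change per direction, and where fewer than 3 were called the 3 of smallest p; in each treatment comparison up to 6 called genes by p, otherwise the 3 of smallest p; from each related list up to 2 called genes of largest change. Values given at EB day 12 for Srebf2, Npc1 and Scd1 were added after they were seen.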

Additional observations from a re-analysis of the deposited data

Results flagged for a closer look

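In each stage the 4 libraries of each of the 28 genes were searched for a library far from the rest, by Dixon's ratio of the gap to the whole range at its 95% critical value. Of 224 such groups, 13 (5.8%) held one, where chance gives about 1 in 20. The DMSO library was the one apart in 9 of them, the BPA library in 2, and the BPF and BPS libraries in 1 each. All values are FPKM.

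With DMSO highest, Srebf2 stood at 122.21 at EB day 12 (others 100.19 to 101.61) and at 59.29 at EB day 4 (48.7 to 49.85). Dhcr7 stood at 48.34 at EB day 9 (39 to 40.48) and at 28.46 in RA EBs (21.27 to 22.16). Lbr stood at 37.68 at EB day 12 (31.06 to 31.8) and Tm7sf2 at 8.03 at EB day 9 (6.65 to 6.72). Insig1 stood at 105.67 at EB day 20 (97.69 to 98.89), Stard4 at 12.2 at EB day 4 (10.69 to 10.81) and Acat2 at 56.5 in ESCs (53.2 to 53.63). With BPA highest, Mvd stood at 34.71 in NPCs (26.76 to 27.25) and Ebp at 6.07 at EB day 4 (5.27 to 5.35). With BPF highest, Hsd17b7 stood at 11.83 at EB day 9 (9.29 to 9.65), and with BPS lowest, Npc2 stood at 97.55 at EB day 12 (110.55 to 111.58).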

How the results depend on the processing

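Of 363 values of named genes under the alternatives, 328 kept their direction and side of the threshold, 35 lost the call and 0 reversed. By the adjusted p alone, the genes of the 28 called were 27 for EB day 4 against ESC and 24 for EB day 6 against day 4. At the looser unadjusted p under 0.05, these comparisons held 10537 and 9062 of all 15632 genes. The count was 16 for day 9 against 6, 21 for day 12 against 9 and 18 for day 20 against 12. It was 15 for RA EBs against EB days 6 and 9, and 22 for NPCs against EB days 9 and 12. For these, from day 9 against 6 on, the shares of all genes are given above. For RA EBs against EB day 4 and for NPCs against RA EBs no such share is given, so the counts do not set the 28 apart from other genes. The genes called there were 23 and 23. With limma on log2(FPKM + 1) they were 3 for NPCs against EB days 9 and 12, 0 for BPS, 3 for bisphenols at EB day 20, 4 in RA EBs, 9 at EB day 12 and 4 at EB day 9, and with DESeq2 4 at EB day 9 and 4 for NPCs against EB days 9 and 12. Without a filter they were 1 for BPS and 0 in RA EBs, with a filter at 5 CPM 1 for BPS and 2 at EB day 20, and with RLE scaling 2 at EB day 20. Leaving out libraries gave 0 to 3 for BPS, 0 to 1 for bisphenols at EB day 6, 2 to 5 at EB day 9, 8 to 15 at EB day 12, 1 to 2 at EB day 20, 0 to 3 in RA EBs and 0 to 3 for the branch difference. For the stage comparisons it gave 12 to 14 for EB day 4 against ESC, 6 to 8 for RA EBs against EB day 4 and 7 to 8 for NPCs against RA EBs, and the count did not move in the other comparisons. The cause of these changes was not tested, except that dropping the fold limit admits smaller changes by construction. No paired analysis was possible because the labels carry no replicate numbers, while the stage and treatment terms of the fit already match libraries by treatment across stages. With 1 DMSO library per stage, the precision of a difference within a stage rests on the spread of the bisphenol libraries.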

Other observations

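Among the 28 genes the BPS library was the lowest of the 4 for 18 genes at EB day 9, at EB day 12, at EB day 20 and in NPCs, where 27.1%, 22.5%, 27.6% and 22% of all genes had BPS lowest. It was lowest for 7 in ESCs, 8 at EB day 4, 3 at EB day 6 and 6 in RA EBs, against 20.8%, 19.3%, 19.5% and 28.1% of all genes. The DMSO library was the highest for 16 of the 28 in RA EBs, against 37.5% of all genes, for 5 at EB day 20 against 35% and for 3 in NPCs against 24.6%. These orders were noticed after the data were seen and were not tested.

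Of 14 genes of sterol efflux and storage, 1 rose and 1 fell from EB day 4 to day 6, where 10.8% of all genes rose and 8.75% fell. The exporter gene Abcg1 fell by 2.43 on the log2 scale (SE 0.14) and the lipoprotein receptor gene Vldlr rose by 2.12 (SE 0.16). In RA EBs 4 rose and 5 fell against EB day 4 (all genes 19% and 15.7%), the largest changes being those of Cyp46a1, which hydroxylates cholesterol in brain (4.50, SE 0.375), and Abca1 (3.09, SE 0.35). Cyp46a1 stood at 2.41 to 2.77 FPKM there against 0.04 to 0.14 at EB day 4. From RA EBs to NPCs 2 rose and 3 fell (all genes 18.1% and 17.4%). Lrp8, a receptor gene of the same family as Vldlr, rose by 1.68 (SE 0.11), and the sterol hydroxylase gene Cyp27a1 had a log2 change of -2.87 (SE 0.44), from 0.61 to 0.9 FPKM to 0 to 0.21.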
